A study of Mus musculus with 30 samples.

Results

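The 10 genes described here carry the lipases and the fatty acid uptake and binding proteins of the liver: *Lpl*, *Lipc*, *Cd36*, *Slc27a2*, *Slc27a4*, *Fabp1*, *Fabp2*, *Fabp4*, *Vldlr* and *Angptl4*. They were taken by symbol from the 55450 genes of the deposited count table, and all 10 had a row. Their mRNA was measured by poly(A) RNA-seq in 30 livers of male mice fed a diet rich in fat, cholesterol and fructose (HFCFD), in 3 experiments with 5 *Cebpa* fl/fl and 5 *Cebpa* knockout mice each. In HFCFD2W, mice ate HFCFD for 2 weeks, and the knockout was *Cebpa* ΔHep, in which an albumin promoter drives a Cre that needs no tamoxifen. In HFCFD8W+T10D (8 weeks of HFCFD, tamoxifen for the last 10 days) and HFCFD12W+T10W (12 weeks of HFCFD, then 10 weeks of HFCFD with tamoxifen), the knockout was *Cebpa* ΔHep,ERT2, in which albumin-driven Cre acts only after tamoxifen. In both of these experiments *Cebpa* fl/fl mice without Cre went through the same schedule as the knockout mice. All strains were backcrossed to C57BL/6N, and the ages of the mice are not given in the sources used here. The series describes the experiments as different batches of mice, so that diet time, tamoxifen, Cre line and batch cannot be told apart between experiments. The deletion was directed to hepatocytes by the strain design, and *Cebpa* in other cell types was not measured apart here. In whole liver, fewer cells of a type and less RNA per cell cannot be told apart.

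Triglyceride that reaches the liver in lipoproteins is split by lipases at the vessel wall. Lipoprotein lipase (*Lpl*) does so in muscle, fat and macrophages, and is little used by adult hepatocytes, whereas hepatic lipase (*Lipc*) is the lipase of the liver sinusoid. Angiopoietin-like 4 (*Angptl4*) is a secreted inhibitor of lipoprotein lipase, and the VLDL receptor (*Vldlr*) takes up triglyceride-rich particles. Freed fatty acids enter cells with the help of the scavenger receptor CD36 and of the fatty acid transport proteins FATP2 (*Slc27a2*) and FATP4 (*Slc27a4*), and are carried in the cytosol by the fatty acid binding proteins of liver (*Fabp1*), intestine (*Fabp2*), and fat and macrophages (*Fabp4*). CEBPA is a DNA-binding transcription factor of hepatocytes and adipocytes that controls many genes of lipid metabolism.

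The total count per library lay between 7996128 and 10257366. Levels are given as CPM, the count scaled to library size with TMM factors, as mean ± SD with n = 5 per group. After 2 weeks of diet *Cebpa* itself was at 177 ± 17.7 CPM in *Cebpa* fl/fl and 4.74 ± 0.903 CPM in knockout livers. In HFCFD8W+T10D it was at 144 ± 13.4 against 17.2 ± 5.93 CPM. The values of HFCFD12W+T10W were 114 ± 23.04 and 21.3 ± 1.97 CPM. Its groups did not overlap in any experiment. Of 9 hepatocyte markers led by *Alb*, 2, 3 and 5 were lower in the knockout in the 3 experiments, in the order above, and 0 were higher. Among all tested genes 8.09%, 6.85% and 23.8% were called lower, and 8.60%, 10.3% and 27.4% higher. TMM scaling sets the typical gene to no change, and under it the median log2 fold change of all tested genes was 0.01 in each experiment. When libraries were scaled to their totals instead, that median moved by 0.02, 0.19 and 0.37, and the share of calls that were higher in the knockout went from 51.5%, 60% and 53.5% to 57.7%, 84.1% and 88.0%. Small decreases in HFCFD12W+T10W therefore depend on the scaling, and those of the members are given below with both. Values of other genes, and the hepatocyte marker calls, are on TMM scaling unless library totals are named.

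Because the deleted factor binds DNA, the sequences before the start sites of 3 of the members that changed are shown. They come from the RefSeq promoter table of GRCm38.p6, which held 7 of the 10 genes (*Lpl*, *Fabp4* and *Angptl4* were not among them). Each is the 250 bases before the start on the strand of the gene, 5′ to 3′. Capitals mark matches, on either strand, to the loose C/EBP motif TTNCNNAA, to a loose direct repeat 1 (a repeat of the hexamer AGGTCA with 1 base between, with 1 mismatch allowed in each hexamer, the arrangement bound by PPAR with RXR) or to the TATA box TATAAA.
*Fabp1*, chr6:71199629-71199878, plus strand: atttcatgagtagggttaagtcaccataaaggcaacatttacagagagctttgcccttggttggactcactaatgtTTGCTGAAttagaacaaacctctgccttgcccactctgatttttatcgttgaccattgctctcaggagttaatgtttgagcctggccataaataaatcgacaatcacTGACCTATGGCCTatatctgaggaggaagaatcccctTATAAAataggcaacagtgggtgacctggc
*Cd36*, chr5:17835897-17836146, minus strand: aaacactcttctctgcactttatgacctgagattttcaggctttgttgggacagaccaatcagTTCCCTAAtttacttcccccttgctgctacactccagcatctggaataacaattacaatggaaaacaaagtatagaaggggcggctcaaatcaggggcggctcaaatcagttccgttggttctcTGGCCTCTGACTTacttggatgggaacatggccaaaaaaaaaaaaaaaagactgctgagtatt
*Slc27a2*, chr2:126552774-126553023, plus strand: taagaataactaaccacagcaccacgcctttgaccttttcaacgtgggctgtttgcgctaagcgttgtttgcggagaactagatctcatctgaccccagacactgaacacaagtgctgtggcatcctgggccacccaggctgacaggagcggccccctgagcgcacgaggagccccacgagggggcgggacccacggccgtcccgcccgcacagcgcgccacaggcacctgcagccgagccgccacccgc
The *Fabp1* window held TTGCTGAA 174 bases before the start, a direct repeat 67 bases before it (AGGCCATAGGTCA on the minus strand, TGACCTATGGCCT as printed) and TATAAA 30 bases before it. The *Cd36* window held TTCCCTAA 187 bases before the start and a direct repeat 63 bases before it (AAGTCAGAGGCCA on the minus strand). The *Slc27a2* window held none of these motifs. Both it and the *Cd36* window lie within the longer GENCODE M21 gene model, downstream of a further annotated start. The GENCODE model of *Fabp1* starts at 71199827, before the end of its printed window, and the TATAAA lies inside that model. Distances are counted from the RefSeq start. Of all 32851 mouse promoters in the table (300 bases each, 250 before and 50 after the start), 40.7% held TTNCNNAA, 13.6% TATAAA and 2.40% the loose direct repeat. The stricter palindrome TTGCGCAA was in 0.183%, the cyclic AMP element TGACGTCA in 1.79% and the exact direct repeat in 0.0396%, and none of these 3 was in a window of a member. Among the members whose windows are not printed, *Lipc*, *Fabp2* and *Vldlr* held TTNCNNAA, in *Lipc* after the start. *Lipc* also held the loose direct repeat, and *Slc27a4* held no match. *Lipc* and *Vldlr* each had more than 1 window, with matches in only 1 of them. For *Lipc* that window lies within the GENCODE gene model, and its window at the start of the model held no match. Letters matched in these windows describe sequence only.

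Compared per transcript length, the members spanned a wide range. In every group *Fabp1* was first, with group medians between 8175 and 14617 TPM, which corrects for transcript length, which ranked it 11 to 14 among all genes of the table. *Slc27a2* was second, with medians from 540.2 to 1016 TPM, and no library of it reached any library of *Fabp1*. *Vldlr* was last in every group, with medians from 0.05 TPM in *Cebpa* ΔHep livers of HFCFD2W to 2.20 TPM in *Cebpa* fl/fl livers of HFCFD12W+T10W. The order between these ends changed with genotype mainly through *Lpl*. In *Cebpa* fl/fl livers *Lpl* had medians of 11.9, 10.7 and 10.9 TPM, beside *Slc27a4* at 11.8, 11.6 and 10.8 TPM, and the ranges of both genes overlapped in each experiment. In knockout livers *Lpl* had medians of 45.7, 46.3 and 64.5 TPM, and *Slc27a4* medians of 11.01, 11.7 and 11.8 TPM, with no overlap between the genes.

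**Figure D1:**
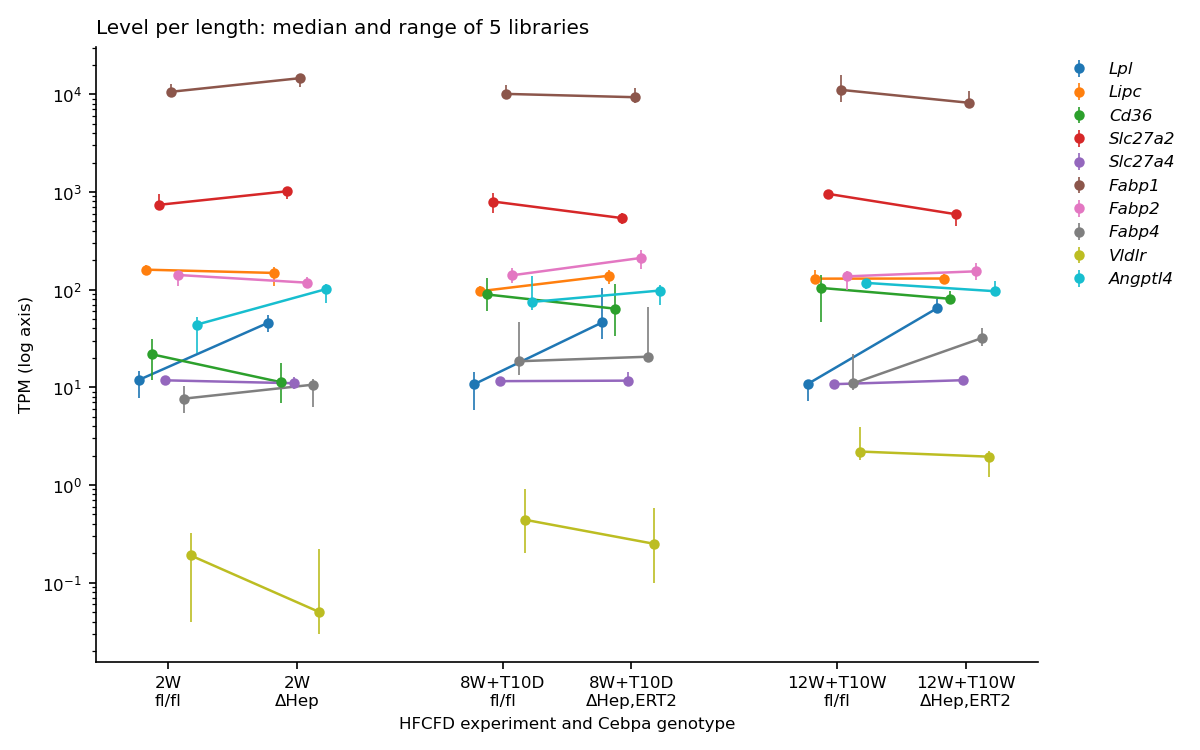
Level per transcript length (TPM, log axis) of the 10 genes in the 6 groups. Points are medians, bars the range of 5 libraries, and lines join the 2 genotypes of an experiment; *Fabp1* and *Slc27a2* stay on top and *Vldlr* at the bottom, and the *Lpl* line rises from near *Slc27a4* in each experiment.

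The question of the series is what the loss of hepatocyte CEBPA does in livers on this diet. In HFCFD2W, 3 of 9 tested members were higher in the knockout (*Lpl*, *Fabp1* and *Angptl4*) and 1 was lower (*Cd36*), at an adjusted p under 0.05 in edgeR's quasi-likelihood test. Of the 11068 genes tested there, 8.60% were called higher and 8.09% lower. In HFCFD8W+T10D, 2 of 10 were higher (*Lpl* and *Fabp2*) and 1 was lower (*Slc27a2*), against 10.3% and 6.85% of 11990 genes. In HFCFD12W+T10W, 2 of 10 were higher (*Lpl* and *Fabp4*) and 7 were lower (*Lipc*, *Cd36*, *Slc27a2*, *Slc27a4*, *Fabp1*, *Vldlr* and *Angptl4*), against 27.4% and 23.8% of 12463 genes. With library totals as the scale, 2 of those 7 stayed lower past the threshold (*Slc27a2* and *Vldlr*), and the same 2 members were higher. The median log2 fold change of the tested members was 0.15, -0.07 and -0.45 in the 3 experiments. *Lpl* passed with a fold change over 2 in each experiment, *Angptl4* higher and *Cd36* lower did so in HFCFD2W, and *Slc27a2* lower did so in HFCFD12W+T10W. Of all genes, 1.69%, 4.09% and 14.3% were called higher with a fold change over 2, and 1.38%, 2.01% and 3.47% lower. On TMM-scaled CPM, groups did not overlap, with the knockout above, for 2, 1 and 1 members (6.33%, 6.01% and 19.6% of all genes). With the knockout below there were 0, 0 and 5 (6.13%, 5.5% and 19.5%). Of those 5, *Lipc*, *Fabp1*, *Vldlr* and *Angptl4* had TPM ranges that overlapped between genotypes, and *Slc27a2* did not.

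**Figure D2:**
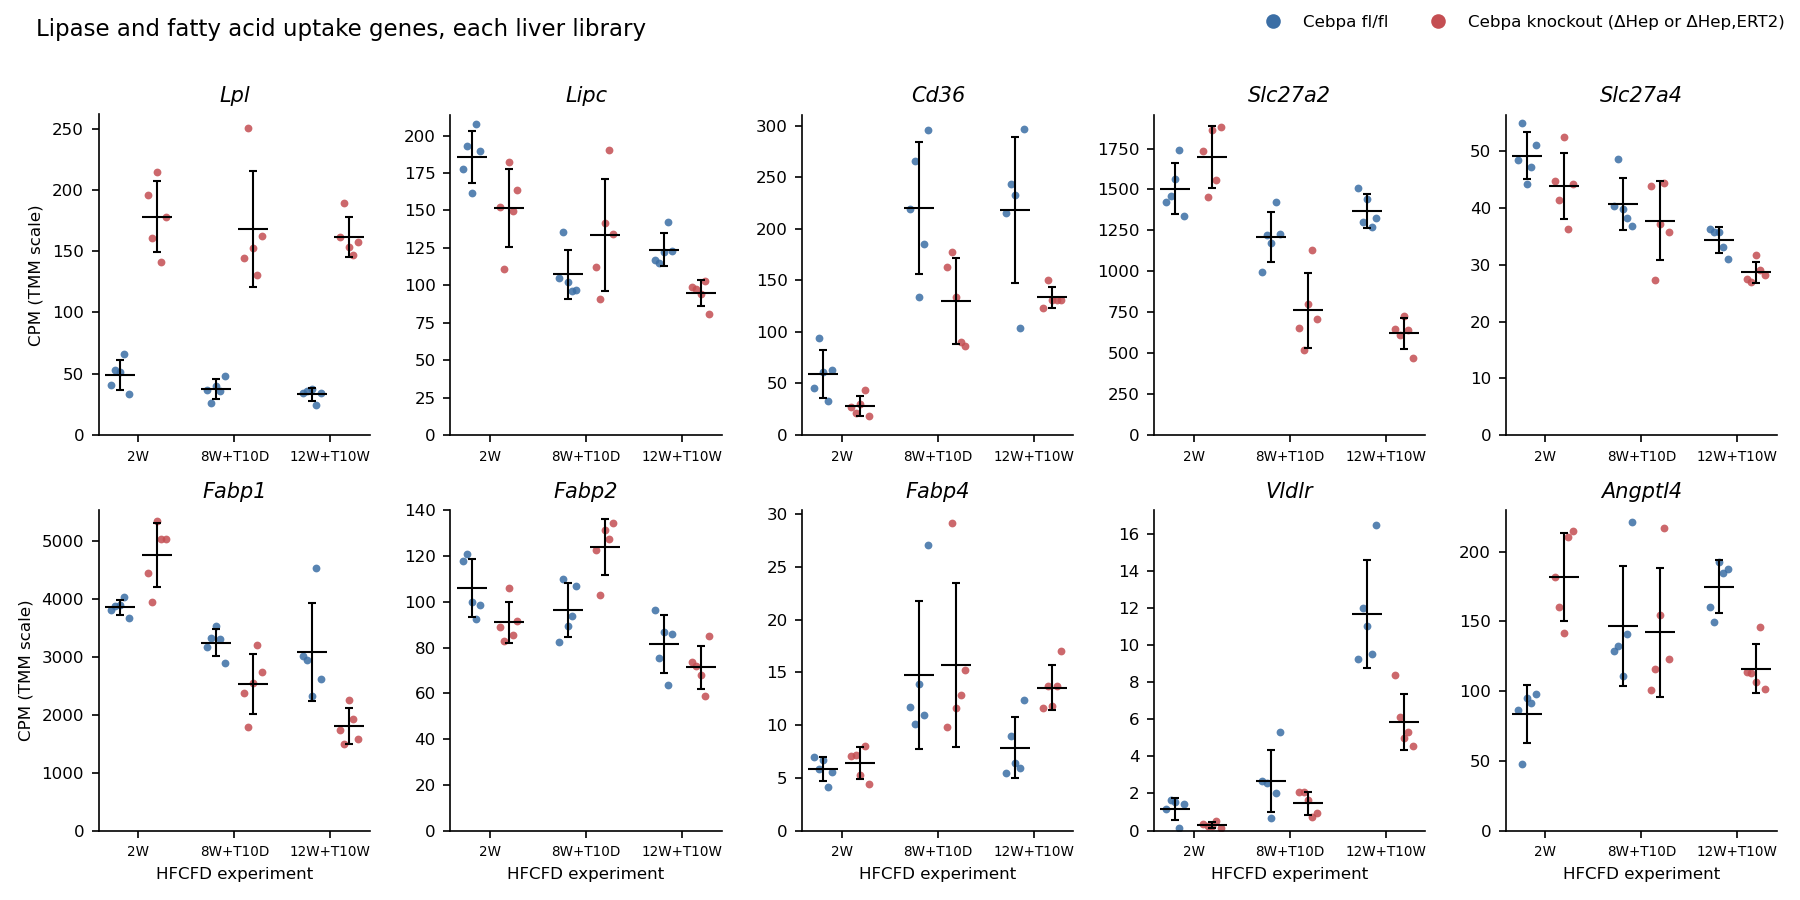
CPM on the TMM scale (each panel from 0) of the 10 genes in each liver library, by HFCFD experiment, with *Cebpa* fl/fl in blue and the knockout in red. Points are libraries, black bars the mean ± SD of 5; the *Lpl* panel shows knockout libraries from 131 to 250.1 CPM and every *Cebpa* fl/fl library below 66.0 CPM.

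**Figure D3:**
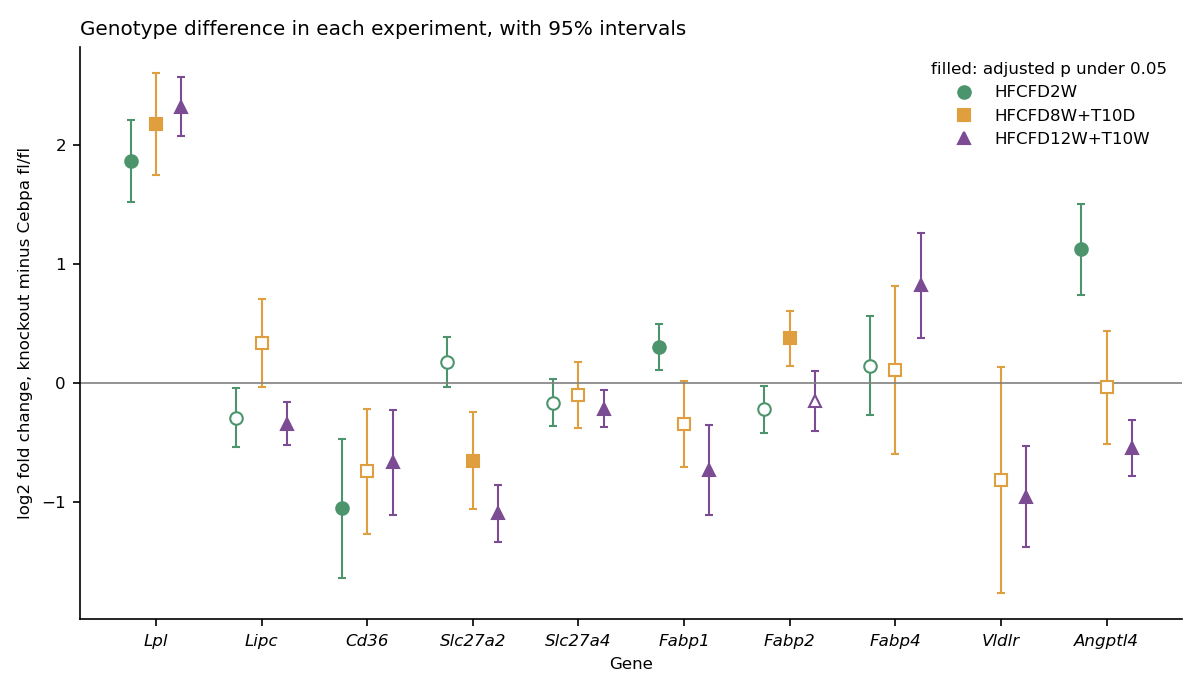
Log2 fold change of knockout over *Cebpa* fl/fl for each gene and experiment, with 95% intervals and filled symbols for an adjusted p under 0.05. *Lpl* lies near or above 1.87 in all 3 experiments, while *Angptl4*, *Fabp1* and *Slc27a2* go from above 0 in HFCFD2W to below 0 in HFCFD12W+T10W. *Vldlr* in HFCFD2W had too few counts for the fit and is not drawn.

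*Lpl* (ENSMUSG00000015568.16, chromosome 8, 68880491 to 68907448, plus strand, GRCm38) was the member with the largest increase in each experiment. In HFCFD2W the *Cebpa* fl/fl libraries held 41, 52.8, 51.1, 66 and 33.2 CPM, and the *Cebpa* ΔHep libraries 196, 160.4, 215, 141 and 178 CPM. In HFCFD8W+T10D the values were 37, 25.9, 40.1, 36.1 and 48.4 CPM in *Cebpa* fl/fl and 145, 250.1, 152, 131 and 162 CPM in *Cebpa* ΔHep,ERT2. In HFCFD12W+T10W they were 34.1, 35.7, 37.5, 24.2 and 34.5 CPM and 161, 189, 153, 147 and 157 CPM. The groups did not overlap in any experiment, and knockout libraries of all 3 experiments lay in the same range apart from replicate 2 of HFCFD8W+T10D, which was the highest. The increase was 3.65-fold (log2 1.87 ± 0.161 SE, adjusted p = 1.34e-05), 4.52-fold (2.18 ± 0.200, 3.06e-05) and 5.01-fold (2.33 ± 0.115, 3.41e-08). Without that replicate 2 the log2 fold change in HFCFD8W+T10D was 1.98. The differences of these increases between experiments did not pass (adjusted p = 0.202 to 0.819), but on library totals the increase of *Lpl* differed between HFCFD2W and HFCFD12W+T10W past the threshold. A 3-fold or larger rise of *Lpl* was thus present after 2 weeks of diet as well as after 22.

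Macrophage markers were read beside *Lpl*, since macrophages make this enzyme. The summed level of 6 markers of lipid-associated macrophages (*Trem2*, *Gpnmb*, *Cd9*, *Itgax*, *Atp6v0d2* and *Mmp12*) was 13.2 to 23.98 CPM in *Cebpa* fl/fl and 15.4 to 21.8 CPM in *Cebpa* ΔHep livers of HFCFD2W, where 2 of the 6 had enough counts for the test and 0 passed. It was 15.95 to 28.4 against 42.6 to 142 CPM in HFCFD8W+T10D and 18.9 to 26.1 against 157 to 199 CPM in HFCFD12W+T10W, with 6 of 6 markers higher in both. The shares of all tested genes called higher were 8.60%, 10.3% and 27.4% in the 3 experiments, and 23.8% were lower in HFCFD12W+T10W. Of 10 general macrophage and Kupffer cell markers, led by *Cd5l*, 3, 6 and 6 were higher, and 2 were lower in HFCFD12W+T10W. Their sum was 297 to 411 against 323 to 512 CPM in HFCFD2W, 763 to 1373 against 1297 to 2677 CPM in HFCFD8W+T10D, and 399.7 to 1111 against 1204 to 1450.3 CPM in HFCFD12W+T10W. In HFCFD2W the sums of the lipid-associated markers overlapped between genotypes while *Lpl* did not. In the inducible experiments both were separated by genotype. The part of macrophages in *Lpl* was not tested in any of the 3 experiments.

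**Figure D4:**
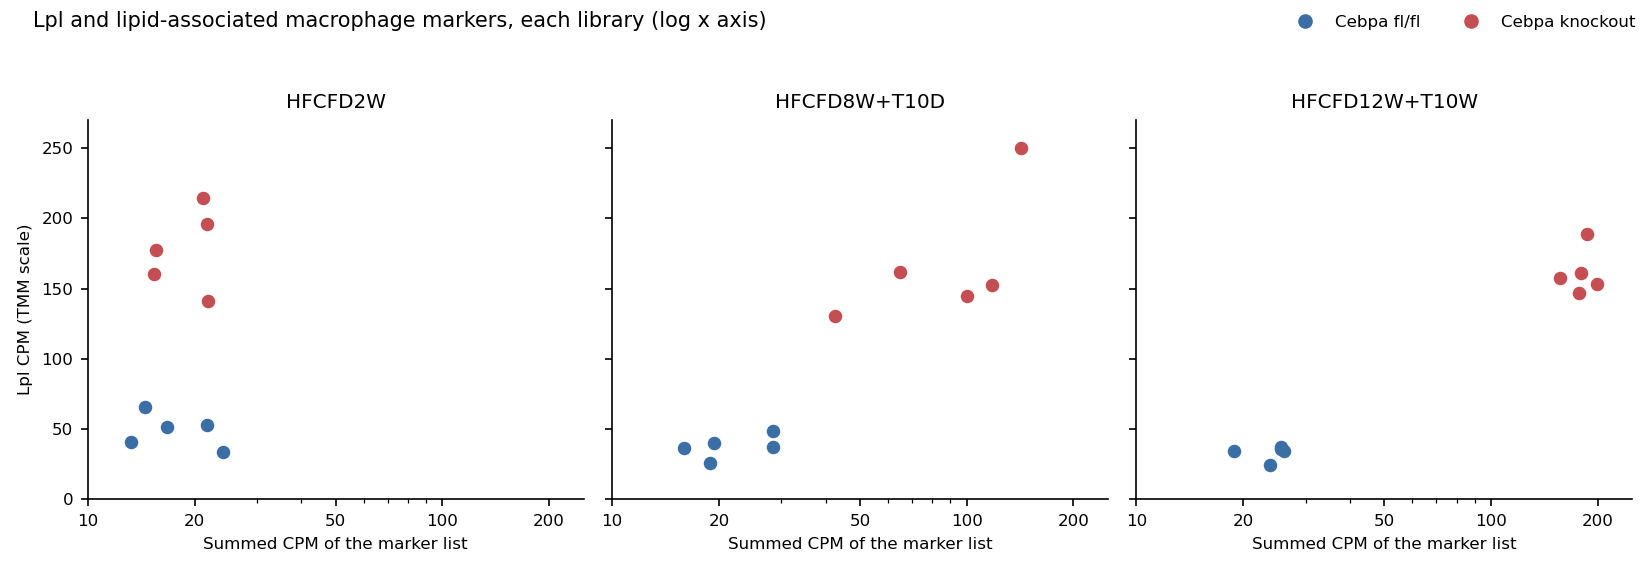
*Lpl* (CPM, linear axis) against the summed CPM of 6 lipid-associated macrophage markers (log axis) in each library, by experiment, with *Cebpa* fl/fl in blue and the knockout in red. In HFCFD2W the genotypes share the marker range of 15.4 to 21.8 CPM and differ in *Lpl*, and in the other experiments they differ on both axes.

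*Lipc* (ENSMUSG00000032207.10, chromosome 9, 70798128 to 70952226, minus strand), the hepatic lipase, moved little. In HFCFD2W it was 186 ± 17.4 CPM in *Cebpa* fl/fl and 152 ± 26.3 CPM in *Cebpa* ΔHep (log2 -0.29 ± 0.114 SE, adjusted p = 0.0972). In HFCFD8W+T10D it was 107 ± 16.4 and 134 ± 37.4 CPM (0.33 ± 0.171, 0.209). In HFCFD12W+T10W the libraries held 117, 115, 122, 142 and 123 CPM in *Cebpa* fl/fl and 98.7, 97.8, 94.5, 103 and 80.9 CPM in *Cebpa* ΔHep,ERT2, with no overlap, a fall of 1.27-fold (log2 -0.34 ± 0.0833, adjusted p = 0.00417). Scaled to library totals that change was 0.03 (adjusted p = 0.729). The medians per length were 129 and 129.9 TPM, with overlapping ranges of 117 to 159 and 117 to 144 TPM. On library totals, *Lipc* was higher in *Cebpa* ΔHep,ERT2 livers of HFCFD8W+T10D (0.49, adjusted p = 0.0127). For the 2 lipases, then, *Lpl* differed by genotype under either scaling in each experiment, while the call for *Lipc* moved with the scaling in the inducible experiments, and its direction did so in HFCFD12W+T10W.

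*Angptl4* (ENSMUSG00000002289.16, chromosome 17, 33773750 to 33781830, minus strand) encodes the secreted inhibitor of lipoprotein lipase. In HFCFD2W it held 86.4, 47.5, 94.9, 91.2 and 97.6 CPM in *Cebpa* fl/fl and 182, 161, 142, 211 and 215 CPM in *Cebpa* ΔHep. The groups did not overlap, with a rise of 2.18-fold (log2 1.12 ± 0.178 SE, adjusted p = 0.00103). In HFCFD8W+T10D the values were 129, 132, 111, 141 and 221 CPM and 101, 116, 155, 217 and 123 CPM, which overlapped (log2 -0.04, 95% interval -0.51 to 0.44, adjusted p = 0.934). In HFCFD12W+T10W they were 160.3, 149, 192, 185 and 188 CPM and 114, 113, 106, 146 and 102 CPM, with every knockout library below every *Cebpa* fl/fl library on this scale. The fall there was 1.46-fold (log2 -0.55 ± 0.108, adjusted p = 0.000972) and, with library totals, -0.18 (adjusted p = 0.124). In TPM these groups overlapped, at 101 to 126 in *Cebpa* fl/fl and 88 to 121 in the knockout. *Angptl4* thus rose with *Lpl* in the 2-week livers and not in the others, and the genotype effect differed from HFCFD2W by -1.17 ± 0.274 in HFCFD8W+T10D (adjusted p = 0.00559) and by -1.71 ± 0.275 in HFCFD12W+T10W (adjusted p = 4.11e-05). On library totals these differences were -1.04 and -1.32, and both passed.

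*Vldlr* (ENSMUSG00000024924.14, chromosome 19, 27216484 to 27254231, plus strand), the receptor for triglyceride-rich particles, was the least abundant member. In HFCFD2W its libraries held 1 to 13 counts in *Cebpa* fl/fl and 1 to 4 counts in *Cebpa* ΔHep, too few for the fit. On log2 CPM the knockout was lower by a mean of -1.27 (two-sided exact permutation test, unadjusted p = 0.0397, where 0.00794 is the smallest value 5 against 5 mice allow). In HFCFD8W+T10D the means were 2.66 ± 1.68 and 1.48 ± 0.6249 CPM and overlapped (log2 -0.82, adjusted p = 0.234). In HFCFD12W+T10W *Cebpa* fl/fl libraries held 9.27, 12, 11, 9.53 and 16.5 CPM and *Cebpa* ΔHep,ERT2 libraries 8.37, 6.1, 4.98, 5.29 and 4.53 CPM, without overlap. That was a fall of 1.94-fold (log2 -0.96 ± 0.197 SE, adjusted p = 0.00134), which passed on library totals as well (-0.59, adjusted p = 0.0207) and did not on TPM (-0.33, adjusted p = 0.122). In TPM the groups overlapped, at 1.82 to 3.91 in *Cebpa* fl/fl and 1.22 to 2.25 in the knockout.

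*Cd36* (ENSMUSG00000002944.15, chromosome 5, 17781690 to 17888801, minus strand) encodes the scavenger receptor that takes up long-chain fatty acids. In HFCFD2W its values were 45.3, 94, 60.6, 32.7 and 63.2 CPM in *Cebpa* fl/fl and 27.3, 21.5, 30.3, 44.1 and 18.8 CPM in *Cebpa* ΔHep. The groups overlapped through 1 library on each side, and the fall was 2.08-fold (log2 -1.06 ± 0.270 SE, adjusted p = 0.0184). In HFCFD8W+T10D they were 219.6, 266, 134, 185 and 296 CPM and 163, 177, 133, 89.9 and 86.1 CPM. The fall of the mean by 1.67-fold there just missed the threshold in the main test (log2 -0.74 ± 0.242, adjusted p = 0.0515). It passed in DESeq2 (-0.76, adjusted p = 0.0166). It also passed with no filter, with the authors' genes, in limma on the authors' CPM and in the joint fit (adjusted p = 0.0251 to 0.0482). It missed with upper quartile scaling (adjusted p = 0.0568) and with a replicate block (0.0513). It was smaller and missed on library totals (-0.53, adjusted p = 0.177) and on TPM (-0.48, adjusted p = 0.279). In HFCFD12W+T10W they were 215, 244, 232, 103 and 297 CPM and 124, 150.1, 131, 131 and 131 CPM. Replicate 4 of *Cebpa* fl/fl lay below every knockout library, and the other 4 above every one of them. The fall was 1.59-fold (log2 -0.67 ± 0.205, adjusted p = 0.0155), and -0.30 with an adjusted p of 0.229 on library totals. The genotype log2 fold change of *Cd36* was below 0 in each experiment, and the differences between experiments did not pass (adjusted p = 0.521 to 0.953).

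*Slc27a2* (ENSMUSG00000027359.16, chromosome 2, 126552407 to 126588243, plus strand) encodes FATP2, a fatty acid transporter and very long-chain acyl-CoA synthetase of hepatocytes. In HFCFD2W its level was 1506 ± 155 CPM in *Cebpa* fl/fl and 1699 ± 188 CPM in *Cebpa* ΔHep (log2 0.18 ± 0.0959 SE, adjusted p = 0.233). In HFCFD8W+T10D the libraries held 996, 1224, 1173, 1424 and 1226 CPM in *Cebpa* fl/fl and 651, 519.6, 799.8, 1130.2 and 708 CPM in *Cebpa* ΔHep,ERT2. Only replicate 4 of the knockout reached the *Cebpa* fl/fl range, and the fall was 1.57-fold (log2 -0.65 ± 0.190, adjusted p = 0.0320). In HFCFD12W+T10W they held 1508, 1299, 1442, 1271 and 1324 CPM and 648, 614, 726, 641 and 472 CPM, with a wide gap between the groups. The fall was 2.14-fold (log2 -1.10 ± 0.112, adjusted p = 6.18e-06), and with library totals the log2 fold change was -0.73 (adjusted p = 4.14e-05). The genotype effect was lower than in HFCFD2W by -0.84 ± 0.204 in HFCFD8W+T10D (adjusted p = 0.00752) and by -1.32 ± 0.205 in HFCFD12W+T10W (adjusted p = 2.97e-05).

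The call in HFCFD8W+T10D was lost, with an adjusted p of up to 0.0823, when any library other than *Cebpa* fl/fl replicate 1 or *Cebpa* ΔHep,ERT2 replicate 4 was left out, while the log2 fold change stayed between -0.84 and -0.55. *Slc27a4* (ENSMUSG00000059316.2, chromosome 2, 29802634 to 29817522, plus strand), the related transporter FATP4 of intestine and skin, had 284 to 468 counts per library. Its group means ran from 28.7 ± 1.88 to 49.2 ± 4.08 CPM. The log2 fold change was -0.17 (adjusted p = 0.238), -0.10 (0.654) and -0.22 ± 0.0720 SE (0.0232) in the 3 experiments. On library totals the values of the inducible experiments turned to 0.07 and 0.15 (adjusted p = 0.679 and 0.0827), and leaving out replicate 1 or 2 of *Cebpa* ΔHep,ERT2 in HFCFD12W+T10W gave an adjusted p of 0.0510 or 0.0572. So the transporter most abundant per length changed in the inducible experiments, and no change of its relative held under both scalings.

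*Fabp1* (ENSMUSG00000054422.7, chromosome 6, 71199827 to 71205023, plus strand), the liver fatty acid binding protein, went in opposite directions in the first and the last experiment. In HFCFD2W its values were 3810.1, 3872, 3885, 4035 and 3666 CPM in *Cebpa* fl/fl and 4445, 3944, 5338, 5030.1 and 5031 CPM in *Cebpa* ΔHep. Only replicate 3 of the knockout lay within the *Cebpa* fl/fl range, and the rise was 1.24-fold (log2 0.31 ± 0.0900 SE, adjusted p = 0.0352). That call was lost when any library but *Cebpa* ΔHep replicate 2 or 3 was left out (log2 0.27 to 0.37, adjusted p up to 0.0820). It was lost as well in the joint fit (adjusted p = 0.192) and in limma on the authors' CPM (0.0874 and 0.0840 with a pseudocount of 1 and 0.25). In HFCFD8W+T10D the means were 3245 ± 234 and 2530.0 ± 519.6 CPM (log2 -0.35 ± 0.166, adjusted p = 0.177). In HFCFD12W+T10W the values were 3016, 2935, 2328, 4526 and 2608 CPM and 1741, 1486, 2259.8, 1929.7 and 1580.4 CPM. The groups did not overlap on this scale, although replicate 3 of the knockout came close to the lowest *Cebpa* fl/fl library. The fall was 1.66-fold (log2 -0.73 ± 0.175, adjusted p = 0.00359), and -0.36 with an adjusted p of 0.0646 on library totals. In TPM the groups overlapped, at 8348 to 15589 in *Cebpa* fl/fl and 7471 to 10696 in the knockout. The effect in HFCFD12W+T10W was lower than in HFCFD2W by -1.08 ± 0.213 (adjusted p = 0.000365), and by -0.69 on library totals (adjusted p = 0.00458).

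*Fabp2* (ENSMUSG00000023057.5, chromosome 3, 122895072 to 122899506, plus strand) is named for the intestine and was clearly present in liver, at 71.4 ± 9.39 to 124 ± 12.4 CPM. In HFCFD8W+T10D its values were 82.3, 109.8, 89.6, 93.7 and 107 CPM in *Cebpa* fl/fl and 123, 103, 131, 128 and 134 CPM in *Cebpa* ΔHep,ERT2. The groups overlapped only through replicate 2 of the knockout, and the rise was 1.30-fold (log2 0.37 ± 0.107 SE, adjusted p = 0.0294). It was lost when any of *Cebpa* fl/fl replicates 1, 3 or 4 or *Cebpa* ΔHep,ERT2 replicates 1, 3 or 5 was left out (log2 0.31 to 0.43, adjusted p up to 0.0837). In HFCFD2W and HFCFD12W+T10W the log2 fold change was -0.22 (adjusted p = 0.119) and -0.15 (adjusted p = 0.301), and on library totals the latter was 0.22 (adjusted p = 0.140). The enterocyte markers *Sis* and *Fabp6* were at 0 counts in all 30 libraries. Of the 4 enterocyte markers, *Apoa4*, which liver makes too, was the most abundant, and *Apoa4* was lower in HFCFD2W (490 to 175 CPM, log2 -1.48, adjusted p = 6.01e-06). *Vil1* was higher in HFCFD12W+T10W, from 0.0440 to 2.18 CPM.

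*Fabp4* (ENSMUSG00000062515.3, chromosome 3, 10204088 to 10208576, minus strand), the binding protein of adipocytes and macrophages, was low. In HFCFD2W it was 5.82 ± 1.11 and 6.41 ± 1.497 CPM in *Cebpa* fl/fl and *Cebpa* ΔHep (log2 0.15, adjusted p = 0.654). In HFCFD8W+T10D the values were 11.7, 10.1, 13.9, 11 and 27.1 CPM and 9.84, 29.1, 11.6, 12.8 and 15.2 CPM. One library of each genotype stood far above the rest, *Cebpa* fl/fl replicate 5 and *Cebpa* ΔHep,ERT2 replicate 2, and the genotypes could not be separated (log2 0.11, 95% interval -0.60 to 0.81, adjusted p = 0.860). In HFCFD12W+T10W they were 5.47, 8.95, 6.43, 5.97 and 12.4 CPM in *Cebpa* fl/fl and 11.6, 13.7, 11.8, 13.7 and 17 CPM in *Cebpa* ΔHep,ERT2. The overlap came from *Cebpa* fl/fl replicate 5, and the rise was 1.77-fold (log2 0.82 ± 0.205 SE, adjusted p = 0.00482). On library totals it was 1.19 (adjusted p = 0.000519). The adipocyte markers *Adipoq*, *Lep*, *Plin1* and *Retn* were at 0 counts in all 30 libraries, and 2 of the 7 adipocyte markers had enough counts to be tested. *Thrsp*, which hepatocytes also express, was the most abundant of them and was lower in HFCFD12W+T10W (359 to 161 CPM, adjusted p = 0.00335). The macrophage marker sums given with *Lpl* were higher in the knockout in HFCFD12W+T10W as *Fabp4* was, and also in HFCFD8W+T10D, where *Fabp4* did not pass. Their part in *Fabp4* was not tested.

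Differences between experiments were also read from the *Cebpa* fl/fl livers alone, and describe that genotype only. From HFCFD2W to HFCFD8W+T10D, 6 of 10 members differed, 4 upward and 2 downward, against 43.6% of 12964 genes (22.2% and 21.5%). *Cd36* was 3.72-fold higher (log2 1.90 ± 0.274 SE, adjusted p = 3.30e-06), from 59.1 ± 23.03 to 220.0 ± 64.1 CPM, and no library of the earlier time reached the later range. *Fabp4* was 2.54-fold higher (1.35 ± 0.292, adjusted p = 0.000478), *Vldlr* 2.26-fold (1.18 ± 0.409, adjusted p = 0.0204) and *Angptl4* 1.76-fold (0.81 ± 0.195, adjusted p = 0.00127). *Lipc* was lower (-0.79 ± 0.141, adjusted p = 4.96e-05), as was *Slc27a4* (-0.27 ± 0.105, adjusted p = 0.0361), whose call was lost in DESeq2, with upper quartile scaling, with no filter and on library totals (adjusted p = 0.0584, 0.114, 0.0822 and 0.437) and in 14 of the 30 fits that left out 1 library. From HFCFD8W+T10D to HFCFD12W+T10W, 2 of 10 differed, 1 in each direction, against 11.4% of genes (6.31% upward and 5.12% downward). *Vldlr* was 4.32-fold higher (2.11 ± 0.317, adjusted p = 5.54e-05), and *Fabp4* was lower (-0.91 ± 0.277, adjusted p = 0.0305). That *Fabp4* difference missed (adjusted p up to 0.174) without *Cebpa* fl/fl replicate 5 of HFCFD8W+T10D or replicate 1, 3 or 4 of HFCFD12W+T10W, and its log2 value stayed between -1.14 and -0.56. It missed on library totals too (-0.88, adjusted p = 0.0784). The *Vldlr* difference between HFCFD2W and HFCFD8W+T10D missed (adjusted p up to 0.137) without *Cebpa* fl/fl replicate 5 of the latter or replicate 4 of the former. Batch, diet time and tamoxifen change together in both comparisons and cannot be told apart.

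The genotype effects themselves were compared between experiments in a joint fit of the 30 libraries, in which the comparisons share groups. Between HFCFD2W and HFCFD8W+T10D, 5 of 10 members had different effects, 2 upward and 3 downward, against 11.2% of genes (4.45% and 6.79%). Beside *Slc27a2* and *Angptl4* these were *Fabp2* (0.58 ± 0.156 SE, adjusted p = 0.0143), *Lipc* (0.61 ± 0.198, adjusted p = 0.0428) and *Fabp1* (-0.66 ± 0.212, adjusted p = 0.0410). Of the 30 fits that left out 1 library each, 14 kept the *Lipc* call and 14 the *Fabp1* call, and 1 further fit put *Fabp1* at the threshold, with an adjusted p that rounds to 0.05. Between HFCFD8W+T10D and HFCFD12W+T10W, 2 of 10 differed, both downward, against 10.5% of genes (4.97% upward and 5.49% downward). These were *Lipc* (-0.70 ± 0.198, adjusted p = 0.0218) and *Fabp2* (-0.55 ± 0.156, adjusted p = 0.0214), and on library totals *Fabp2* did not pass (-0.33, adjusted p = 0.219). The *Lipc* call missed (adjusted p up to 0.0565) without *Cebpa* ΔHep,ERT2 replicate 4 or *Cebpa* fl/fl replicate 5 of HFCFD8W+T10D or *Cebpa* fl/fl replicate 4 of HFCFD12W+T10W. The *Fabp2* call missed (adjusted p up to 0.0571) without replicate 3 of either genotype in HFCFD8W+T10D, or without *Cebpa* fl/fl replicate 3 or *Cebpa* ΔHep,ERT2 replicate 4 of HFCFD12W+T10W. Without *Cebpa* fl/fl replicate 1 of HFCFD12W+T10W it was at the threshold, with an adjusted p that rounds to 0.05. Between HFCFD2W and HFCFD12W+T10W, 3 of 10 differed (*Slc27a2*, *Fabp1* and *Angptl4*), against 30.7% of genes (13.4% upward and 17.3% downward). All 3 were lower in the later experiment, and all 3 passed under each alternative run for this comparison and in each of the 30 fits that left out 1 library.

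**Figure D5:**
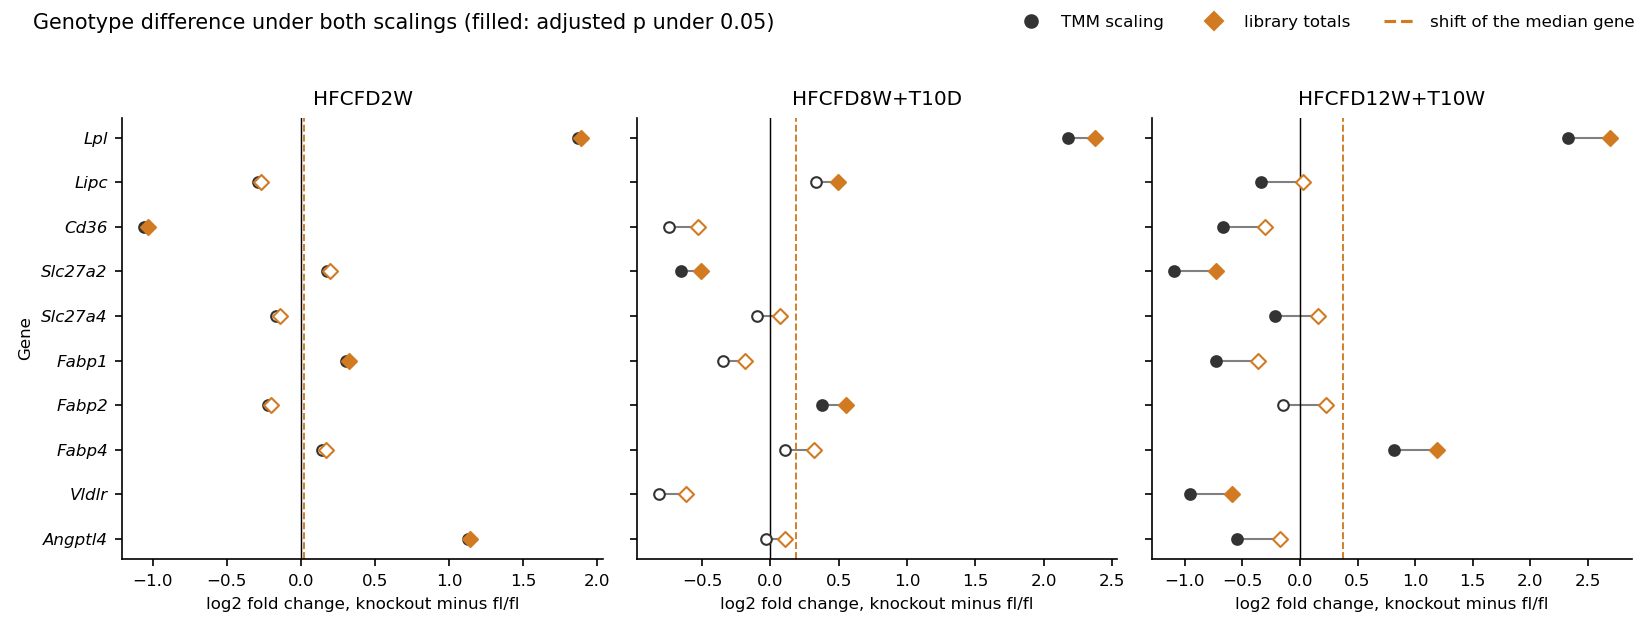
Log2 fold change of knockout over *Cebpa* fl/fl for each gene under TMM scaling (circles) and library totals (diamonds), by experiment, filled at an adjusted p under 0.05, with the shift of the median gene as a dashed line. In HFCFD12W+T10W each gene moves right by about the shift of 0.37, *Lipc*, *Slc27a4* and *Fabp2* cross 0, and *Lpl*, *Fabp4*, *Slc27a2* and *Vldlr* keep direction and call.

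Other genes of the pathway were taken from a list of 45 (further lipases and their partners, apolipoproteins, receptors, transporters, acyl-CoA synthetases and binding proteins), of which 37 were tested in each experiment. In HFCFD2W, 3 were higher and 5 lower, where 8.60% and 8.09% of all genes were. *Acsl4*, an acyl-CoA synthetase, rose from 56.6 to 112 CPM (log2 0.99, adjusted p = 0.000136). *Acsl1*, the main acyl-CoA synthetase of liver, fell from 1325 to 982 CPM (-0.43, adjusted p = 0.0297), and *Apoc3*, which slows lipoprotein lipase, from 1367 to 1041 CPM (-0.39, adjusted p = 0.00926). In HFCFD8W+T10D, 5 were higher and 3 lower (10.3% and 6.85% of all genes), and 9 and 2 on library totals. *Acsl1* fell from 1163 to 420.2 CPM (-1.46, adjusted p = 0.000151), while *Apoc2*, the activator of lipoprotein lipase, rose from 216 to 438 CPM (1.03, adjusted p = 8.77e-05). *Lipe*, hormone-sensitive lipase, rose from 11.6 to 22.4 CPM (0.96, adjusted p = 0.000816), and *Fabp7*, the brain-type binding protein, from 2.98 to 7.86 CPM (1.43, adjusted p = 0.00870). In HFCFD12W+T10W, 8 were higher and 14 lower (27.4% and 23.8% of all genes), and 16 and 8 on library totals.

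*Acsl1* fell from 1395 to 322 CPM (log2 -2.07, adjusted p = 6.06e-06) in HFCFD12W+T10W, and *G0s2*, an inhibitor of adipose triglyceride lipase, from 31.1 to 10.3 CPM (-1.55, adjusted p = 3.50e-05). *Cav1*, a membrane protein of caveolae, rose from 2.14 to 9.59 CPM (2.20, adjusted p = 0.000264), and *Fabp5*, the epidermal binding protein, from 5.94 to 16.6 CPM (1.52, adjusted p = 0.00649). *Slc27a5*, the bile acid-CoA ligase FATP5, had log2 fold changes of 0.05 and -0.15 (adjusted p = 0.763 and 0.753) and fell in HFCFD12W+T10W from 901 to 335 CPM (-1.39, adjusted p = 1.32e-06). *Gpihbp1*, which anchors lipoprotein lipase on endothelium, had log2 fold changes of 0.09, -0.04 and -0.35 (adjusted p = 0.775, 0.899 and 0.219). *Lipg*, endothelial lipase, was at 0.94 and -0.70 (adjusted p = 0.0899 and 0.286) and fell (-0.75, adjusted p = 0.00891) in HFCFD12W+T10W. *Fabp5* was at 0.64 and -0.64 (adjusted p = 0.359 and 0.232) in the earlier experiments. The list's median log2 fold change was 0.01, -0.11 and -0.22, beside 0.01 for all genes each time.

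Of 18 transcription factors and coactivators that act on such genes, all tested, 3 were higher and 3 lower in HFCFD2W. None was higher and 6 were lower in HFCFD8W+T10D, while HFCFD12W+T10W had 1 higher and 14 lower. The shares of all genes called higher and lower were 8.60% and 8.09%, 10.3% and 6.85%, and 27.4% and 23.8% in these experiments. On library totals the counts in the inducible experiments were 0 and 2, and 3 and 8. In HFCFD2W *Srebf1*, a driver of lipogenesis, fell from 757 to 333 CPM (log2 -1.18, adjusted p = 0.000106) and *Mlxipl* (ChREBP) from 48.6 to 31.7 CPM (-0.61, adjusted p = 0.00126). *Cebpb*, a relative of *Cebpa*, rose from 22.1 to 47.7 CPM (1.11, adjusted p = 0.000394), and *Ppargc1a* from 3.90 to 5.86 CPM (0.57, adjusted p = 0.0302). In HFCFD8W+T10D *Nr1i3* (CAR) fell from 77.2 to 29.7 CPM (-1.37, adjusted p = 0.000121), and *Nr1i2* (PXR) was called lower at -0.61 (adjusted p = 0.00417). In HFCFD12W+T10W *Nr1i3* fell again (-1.49, adjusted p = 9.19e-07), with *Mlxipl* (-1.37, adjusted p = 5.64e-06) and *Hnf4a* (-0.96, adjusted p = 2.21e-06). *Ppara*, the fatty acid sensor of hepatocytes, had log2 fold changes of -0.17 (adjusted p = 0.430), -0.60 (adjusted p = 0.00580) and -0.93 (adjusted p = 2.20e-05). *Pparg*, its relative of fat cells, was at -0.04 (adjusted p = 0.908), -0.73 (adjusted p = 0.0409) and 0.21 (adjusted p = 0.249), and on library totals it was called higher in HFCFD12W+T10W. The median log2 fold change of the 18 was -0.10, -0.24 and -0.55.

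The genes whose log2 CPM followed each member most closely over the 30 libraries are given as a description, since these libraries share genotype, diet and batch. *Lpl* was followed by *Cystm1*, *Spink1* and *H19* (Pearson r = 0.954, 0.924 and 0.920), and *Lipc* by *Cops6*, *Gclm* and *Aldh16a1* (0.934, 0.929 and 0.908). *Angptl4* had no gene above 0.843 (*Dnmbp*, then *Lurap1l* and *Jmy* at 0.825 and 0.803), and *Vldlr* was followed by *Osbpl3*, *Slc4a4* and *Sgms1* (0.910, 0.906 and 0.894). *Cd36* went with *Fam126a*, *Gpat3* and *Ehhadh* (0.930, 0.921 and 0.920), of which *Gpat3* makes glycerolipids and *Ehhadh* is an enzyme of peroxisomal fatty acid oxidation. *Slc27a2* went with *Mug1*, *Acaa2* and *Acadsb* (0.963, 0.950 and 0.943), the latter both enzymes of mitochondrial acyl-CoA breakdown. *Slc27a4* went with *Slc46a1*, *Tmprss6* and *Cideb* (0.931, 0.924 and 0.920). *Fabp1* went with *Ces3b*, *Il1rap* and *Keg1* (0.953, 0.927 and 0.925), *Fabp2* with *Vmp1*, *Esd* and *Sigirr* (0.795, 0.772 and 0.767), and *Fabp4* with *Ptprj*, *Myo9a* and *Gna13* (0.865, 0.860 and 0.859).

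Other cell types were followed by their marker lists in the same livers. Of 11 endothelial markers, led by *Aqp1*, 0 were called in HFCFD2W, 1 was lower in HFCFD8W+T10D, and 1 was higher and 2 lower in HFCFD12W+T10W, with sums of 251 to 440.5 CPM in *Cebpa* fl/fl and 318 to 363 CPM in the knockout there. Of 10 stellate cell and fibroblast markers, led by *Dcn*, 0, 2 and 9 were higher, and in HFCFD12W+T10W their sum was 303 to 382 CPM in *Cebpa* fl/fl and 1062 to 1319 CPM in the knockout. Of 7 cholangiocyte markers, 3 were higher in HFCFD8W+T10D and 7 in HFCFD12W+T10W, where the sum was 9.86 to 13.1 against 56.3 to 86.9 CPM. Muscle and heart markers summed to at most 0.329 CPM in any library, with *Mb* and *Myh6* at 0 in HFCFD8W+T10D. *Cfd* and *Thrsp* were the 2 adipocyte markers with enough counts, and 0, 1 and 2 of them were lower. Beside these marker counts, 8.60%, 10.3% and 27.4% of all tested genes were called higher in the 3 experiments. The shares called lower were 8.09%, 6.85% and 23.8%. The member calls of HFCFD12W+T10W thus stand in livers whose cell markers changed widely, and the part of these cells in the members' values was not tested.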

How the data were processed

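Libraries were prepared with a stranded poly(A) kit, and per the labels reads were trimmed with Trimmomatic 0.36, aligned to mm10 with STAR 2.5.1, checked with Picard 1.84 and counted with RSEM 1.2.22. The deposited tables hold RSEM expected counts per gene (11.3% of values above 0 are not whole), the authors' TMM-scaled CPM of filtered genes (a signal per gene whose sums per library differ), and TPM per library. A deposited RPKM table was not used. Expected counts were rounded, filtered with filterByExpr and tested in each experiment alone with edgeR 4.0.16 (TMM, quasi-likelihood F test, Benjamini-Hochberg over all tested genes). A joint fit of 30 libraries gave the tests between experiments. CPM values printed come from the TMM factors of that joint fit. TPM serves to compare genes, and is also given between genotypes as an alternative scale. SE is the absolute log2 fold change divided by the square root of F.

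Members and lists were chosen with earlier results of these data known. Besides the members, *Cebpa* and a few genes fixed by name, named genes are the 4 with the largest called change (mean of at least 1 CPM) of the pathway and regulator lists in each experiment, the most abundant marker of each list, markers at 0, and the 3 genes most correlated with each member. Some genes that this rule names are not reported here. *Vil1* and *Cfd* were named after their values were seen. All 55450 identifiers matched GENCODE M21. Alternatives were upper quartile scaling, DESeq2 1.42.0, no filter or the authors' filter, limma 3.58.1 on the authors' log2 CPM with a pseudocount of 1 or 0.25, the joint fit, a replicate block, stricter thresholds and leaving out each mouse. Library totals and limma on log2 TPM (pseudocount 1) were added after the data were seen. Deviations of same-numbered mice correlated between -0.231 and 0.184, so replicate numbers were not taken to pair mice. No 2 libraries of a group held identical values. The script for the tests was tested on simulated data.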

Additional observations from a re-analysis of the deposited data

Results flagged for a closer look

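Among the 66 groups of 5 libraries checked (the 10 members and *Cebpa* in 6 groups), 8 held a library far from its group by Dixon's test at the 95% level, which chance alone flags in about 1 of 20 groups. *Lpl* was at 250.1 CPM in replicate 2 of *Cebpa* ΔHep,ERT2 in HFCFD8W+T10D (the others 131 to 162 CPM) and at 24.2 CPM in replicate 4 of *Cebpa* fl/fl in HFCFD12W+T10W (the others 34.1 to 37.5 CPM). *Fabp4* was at 29.1 CPM in that same replicate 2 (the others 9.84 to 15.2 CPM) and at 27.1 CPM in replicate 5 of *Cebpa* fl/fl in HFCFD8W+T10D (the others 10.1 to 13.9 CPM). *Angptl4* was at 221 CPM in that replicate 5 (the others 111 to 141 CPM), at 47.5 CPM in replicate 2 of *Cebpa* fl/fl in HFCFD2W (the others 86.4 to 97.6 CPM) and at 146 CPM in replicate 4 of *Cebpa* ΔHep,ERT2 in HFCFD12W+T10W (the others 102 to 114 CPM). *Lipc* was at 136 CPM in replicate 2 of *Cebpa* fl/fl in HFCFD8W+T10D (the others 96.5 to 105 CPM).

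The genotype effect differed between experiments, by an interaction test in the joint fit, in 10 cases. From HFCFD2W to HFCFD8W+T10D the log2 fold change differed by 0.61 for *Lipc*, -0.84 for *Slc27a2*, -0.66 for *Fabp1*, 0.58 for *Fabp2* and -1.17 for *Angptl4*. From HFCFD8W+T10D to HFCFD12W+T10W it differed by -0.70 for *Lipc* and -0.55 for *Fabp2*. From HFCFD2W to HFCFD12W+T10W it differed by -1.32 for *Slc27a2*, -1.08 for *Fabp1* and -1.71 for *Angptl4*. These experiments differ in Cre line, tamoxifen, diet time and batch at once, which cannot be told apart.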

How the results depend on the processing

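*Lpl* was higher in the knockout in each experiment under every alternative and without any 1 mouse. In HFCFD2W the members higher numbered 2 (without *Fabp1*) in limma with either pseudocount, in the joint fit, with the replicate block, a fold change over 2 or an adjusted p under 0.01. The members lower numbered 2 with no filter, with the authors' genes or in the joint fit (*Vldlr* added), and 0 with the replicate block or an adjusted p under 0.01. In HFCFD8W+T10D they numbered 2 (*Cd36* added) in DESeq2, with no filter, with the authors' genes, in limma with either pseudocount and in the joint fit. They numbered 0 there with a fold change over 2 or an adjusted p under 0.01. Members higher there numbered 1 with no filter, the authors' genes, the replicate block, a fold change over 2 or an adjusted p under 0.01. In HFCFD12W+T10W a fold change over 2 left 1 higher and 1 lower, library totals 2 lower and limma on TPM 1 lower. Differing effects numbered 3 with no filter and 3 with the block between HFCFD2W and HFCFD8W+T10D, 1 with upper quartile scaling, library totals or the block between HFCFD8W+T10D and HFCFD12W+T10W, and 6 on library totals between HFCFD2W and HFCFD12W+T10W (*Lpl*, *Slc27a4* and *Fabp2* added). Between *Cebpa* fl/fl livers of the inducible experiments 1 differed on library totals.

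Library totals and TPM were chosen after the data were seen. On library totals the pathway list gave 9 higher in HFCFD8W+T10D, and 16 higher and 8 lower in HFCFD12W+T10W, and the regulators 2 lower, then 3 higher and 8 lower. Directions turned in HFCFD8W+T10D for *Angptl4* (0.001176 with upper quartile scaling, 0.103 on library totals, 0.167 on TPM) and *Slc27a4* (0.0735 and 0.0757). They turned in HFCFD12W+T10W for *Lipc* (0.0297 on library totals), *Slc27a4* (0.154 and 0.145) and *Fabp2* (0.223 and 0.221). The cause was not tested.

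Leaving out 1 mouse gave 2 to 3 members higher and 1 to 2 lower in HFCFD2W, 1 to 2 and 0 to 1 in HFCFD8W+T10D, and 2 and 6 to 7 in HFCFD12W+T10W. Differing effects ranged from 3 to 5, 1 to 4 and 3 to 3, and differences between *Cebpa* fl/fl livers from 5 to 7 and 1 to 2. *Fabp4* in HFCFD8W+T10D ranged from -0.25 (without *Cebpa* ΔHep,ERT2 replicate 2) to 0.45 (without *Cebpa* fl/fl replicate 5), and *Angptl4* there ranged from -0.24 to 0.16.

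Replicate numbers did not pair the mice (correlations of -0.231 to 0.0697 over 4 pairs, -0.0935 to 0.16 and -0.0532 to 0.184 over 5 pairs). With the replicate block, the calls for *Cd36* (-0.98, adjusted p = 0.0718) and *Fabp1* (0.27, 0.204) in HFCFD2W and *Fabp2* (0.38, 0.0563) in HFCFD8W+T10D were lost. Counts of 1 to 13 limit *Vldlr* in HFCFD2W.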

Other observations

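The values of 2 marker genes counted in the lists above are given here, chosen after they were seen. *Cfd*, complement factor D, which fat cells and steatotic liver make, was at 8.38, 12.996 and 9.41 CPM in *Cebpa* fl/fl livers of the 3 experiments and at 2.18, 0.702 and 0.321 CPM in knockout livers (adjusted p = 0.0747, 0.0127 and 6.48e-05). *Vil1*, villin, which intestine and bile duct cells make, rose from 0.0440 to 2.18 CPM in HFCFD12W+T10W (adjusted p = 1.99e-06).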
